A study of Mus musculus with 9 samples.

Results

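The 10 genes described here encode cytochrome P450 enzymes of the mouse Cyp2b and Cyp3a families: Cyp2b9, Cyp2b10, Cyp2b13, Cyp3a11, Cyp3a13, Cyp3a16, Cyp3a25, Cyp3a41a, Cyp3a44 and Cyp3a59. They were taken by symbol from the 55253 gene symbols of a liver RNA table, as a list of genes read as targets of the receptors CAR and PXR. Livers came from 9 male C57Bl/6J mice. The WD+alcohol group (n = 5) received, for 23 weeks from the age of 10 weeks, a Western diet (WD) and drinking water that was sweetened and held 10% alcohol, and the control group (n = 4) received chow and plain tap water. Diet, alcohol and sweetener changed together, so the part of each cannot be told apart. RNA was read at the 3′ ends of transcripts, so that a level does not depend on transcript length. Levels are given in CPM, read counts scaled to library size, which the authors adjusted by the TMM method. The libraries held 3635860 to 6643645 reads in genes, and 1 read was worth 0.152 to 0.270 CPM. Each library was taken as 1 mouse, since the design gives 5 and 4 mice.

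P450 enzymes of these families oxidise drugs, steroids and other lipophilic compounds in the endoplasmic reticulum of hepatocytes, with electrons passed on by the reductase Por. Their best known regulators are the nuclear receptors CAR (Nr1i3) and PXR (Nr1i2), which bind DNA as heterodimers with the retinoid X receptor, for example Rxra, after exposure to foreign compounds or bile acids. In mice Cyp2b10 is the classic target of CAR and Cyp3a11 that of PXR, whereas Cyp2b9, Cyp2b13, Cyp3a41a and Cyp3a44 are known for higher levels in female livers, and Cyp3a16 for its level before and shortly after birth.

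Within the Cyp2b family the 2 main genes moved in opposite directions: Cyp2b9 averaged 13.9 CPM in WD+alcohol livers and 0.341 CPM in control livers, and Cyp2b10 was 6.41-fold lower in WD+alcohol livers than in control livers, as a ratio of mean CPM. In the Cyp3a family Cyp3a11 was 3.75-fold higher, while Cyp3a13 and Cyp3a25 were not called. Of the 10 genes, 7 had reads and 6 reached the mean of 1 CPM needed for testing. In the limma-trend fit over 14759 genes, 3 of these 6 were called at a Benjamini-Hochberg adjusted p under 0.05, Cyp2b9 and Cyp3a11 higher and Cyp2b10 lower, against 2.29% of all tested genes (1.61% higher and 0.678% lower). For 4 of the 6 the groups did not overlap (Cyp2b9, Cyp3a11 and Cyp3a59 higher, Cyp2b10 lower), against 5.34% of all tested genes (3.34% higher and 2.0% lower). The edgeR quasi-likelihood test, which called 2.13% of all genes (1.5% higher and 0.63% lower), called the same 3 of the 10 genes. The median log2 fold change of the 6 tested genes was 0.65, against -7.66e-04 for all tested genes. Cyp2b9, at 0.341 CPM in control livers, passed the filter through WD+alcohol livers. The counts and the median of the 6 genes therefore lean, by this gene, towards genes high in that group.

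**Figure D1:**
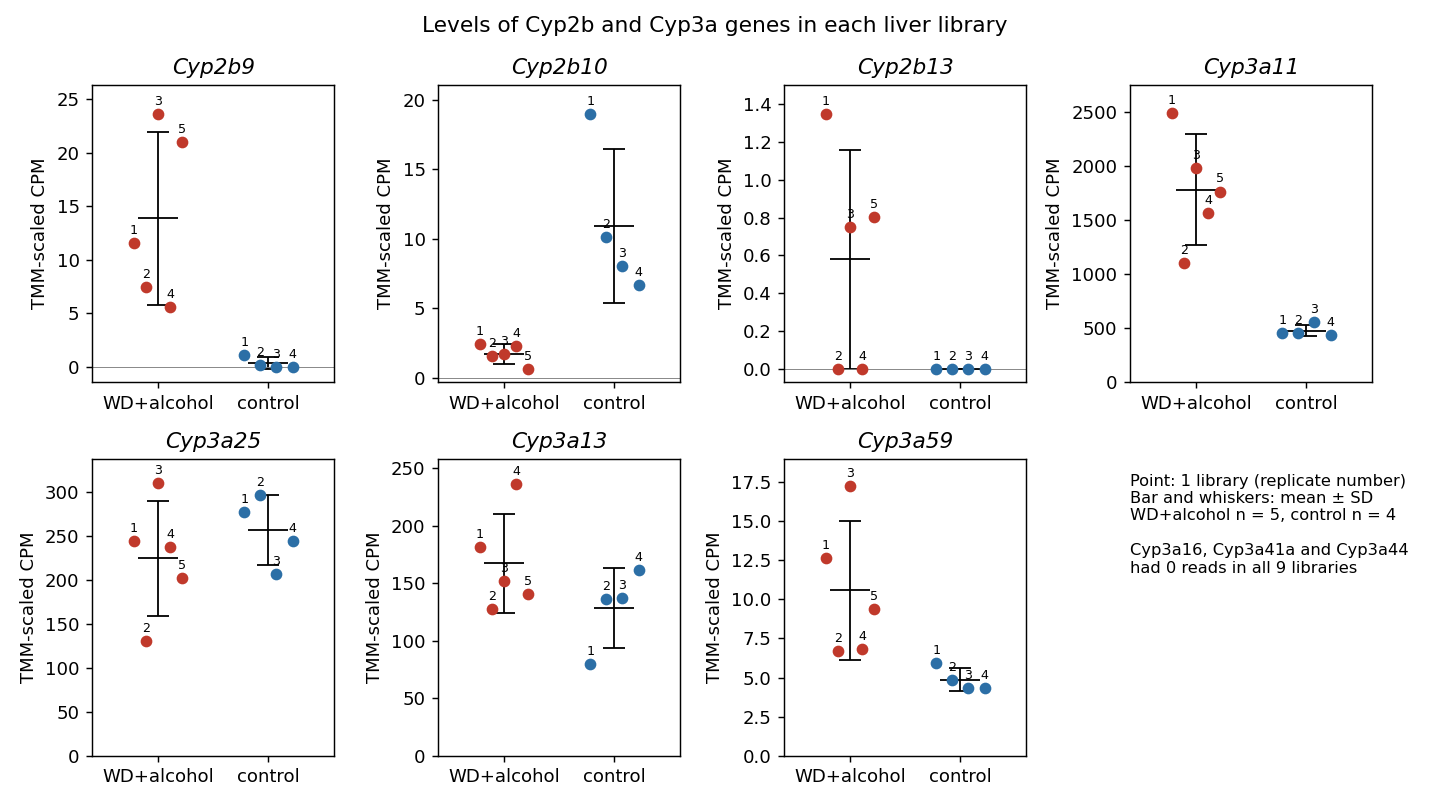
TMM-scaled CPM (y axes, linear, from 0) of the 7 genes with reads in each library, WD+alcohol (red, n = 5) left of control (blue, n = 4), with replicate numbers, mean (bar) and SD (whiskers). All WD+alcohol points lie above all control points for Cyp2b9 (lowest 5.61, against a highest of 1.15 CPM) and below them for Cyp2b10 (highest 2.43, against a lowest of 6.63 CPM), while the groups overlap for Cyp3a25 and Cyp3a13.

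The stretch of 250 bases before the annotated transcript start is printed for 5 genes, from RefSeq (GRCm38.p6, another build than the deposited table, which per the submitters' processing notes was aligned to GRCm39). The 3 Cyp2b genes are shown because Cyp2b9 and Cyp2b13 have nearly the same window while Cyp2b9 and Cyp2b10 moved in opposite directions, and Cyp3a11 and Cyp3a41a because one is the most abundant of the 10 genes and the other had no read. Each is written 5′ to 3′ in the direction of the gene, and capitals mark matches to the motifs named below.
Cyp2b9 (chr7:26173159-26173408, plus strand): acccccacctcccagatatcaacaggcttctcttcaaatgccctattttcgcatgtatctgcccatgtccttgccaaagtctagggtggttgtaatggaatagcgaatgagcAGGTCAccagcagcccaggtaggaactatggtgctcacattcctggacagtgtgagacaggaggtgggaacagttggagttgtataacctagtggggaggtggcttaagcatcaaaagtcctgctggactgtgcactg
Cyp2b13 (chr7:26061245-26061494, plus strand): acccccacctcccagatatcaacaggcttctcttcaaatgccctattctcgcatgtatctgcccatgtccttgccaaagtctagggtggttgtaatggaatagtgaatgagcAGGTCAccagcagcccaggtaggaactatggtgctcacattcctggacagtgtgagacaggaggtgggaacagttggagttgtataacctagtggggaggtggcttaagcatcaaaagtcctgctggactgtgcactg
Cyp2b10 (chr7:25897408-25897657, plus strand): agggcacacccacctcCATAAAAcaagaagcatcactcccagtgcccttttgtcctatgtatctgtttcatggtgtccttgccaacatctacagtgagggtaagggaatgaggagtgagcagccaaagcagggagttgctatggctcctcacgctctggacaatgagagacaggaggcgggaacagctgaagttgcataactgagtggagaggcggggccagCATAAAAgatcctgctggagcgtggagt
Cyp3a11 (chr5:145879855-145880104, minus strand): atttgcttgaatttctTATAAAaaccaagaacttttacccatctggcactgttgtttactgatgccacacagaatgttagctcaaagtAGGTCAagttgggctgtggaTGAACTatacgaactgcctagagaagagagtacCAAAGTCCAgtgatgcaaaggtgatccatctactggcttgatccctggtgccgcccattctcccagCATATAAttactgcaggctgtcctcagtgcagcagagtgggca
Cyp3a41a (chr5:145720137-145720386, minus strand): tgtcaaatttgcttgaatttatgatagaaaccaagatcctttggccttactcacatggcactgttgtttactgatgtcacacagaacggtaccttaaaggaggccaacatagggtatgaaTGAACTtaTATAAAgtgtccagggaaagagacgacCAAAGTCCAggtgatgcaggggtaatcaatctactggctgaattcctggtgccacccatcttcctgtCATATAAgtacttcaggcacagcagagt

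The windows of Cyp2b9 and Cyp2b13 shared 248 of 250 bases (99.2%) and differed by T48C and C104T, with Cyp2b9 first and positions counted from 1 at the 5′ end of the window. Cyp2b9 and Cyp2b10 shared 71.0% of aligned positions. Cyp3a11 shared 72.9% with Cyp3a41a, 76.6% with Cyp3a16 and 72.5% with Cyp3a44, and Cyp3a25 shared 94.8% with Cyp3a59.

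Motifs were searched on both strands. The nuclear receptor half-site AGGTCA was found in the windows of Cyp2b9 and Cyp2b13 with its first base at -138, that is 138 bases before the start, in that of Cyp3a11 at -162, and in those of Cyp3a44, Cyp3a25 and Cyp3a59. It occurs in 14.0% of the 32851 RefSeq windows of this length. The half-site AGTTCA, the form often cited for PXR, was found on the opposite strand (TGAACT) at -142 in Cyp3a11 and at -130 in Cyp3a41a, against 11.8% of all windows. The core CAAAGTCCA of an HNF4 site stood at -109 in Cyp3a11, at -95 in Cyp3a41a and also in Cyp3a16, against 0.384% of all windows. Of the A/T-rich boxes, CATAAAA stood at -28 and -234 in Cyp2b10 and is held by 3.77% of windows, and CATATAA stood at -43 in Cyp3a11 and -28 in Cyp3a41a and is held by 2.12%. TATAAA, held by 12.4% of windows, was found at -234 in Cyp3a11 and at -122 in Cyp3a41a. No motif match overlapped another. Pairs of these half-sites in the spacings known for CAR and PXR (a direct repeat of AGTTCA with 3 bases between, AGGTCA before AGTTCA with 4 bases between, and TGAACT before AGGTCA with 6 bases between) and the STAT motif TTCNNNGAA, which is in 7.02% of windows, had no match in any of the 10 windows. Each of these pairs, searched in this exact form, had a match in 0 (0.0%) of all 32851 windows. Their absence therefore cannot set the 10 windows apart from others. The matches given above describe the letters of the windows and were not tested as binding sites. Bases further from the start were not searched, so a gene without a match here may hold one elsewhere.

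**Figure D2:**
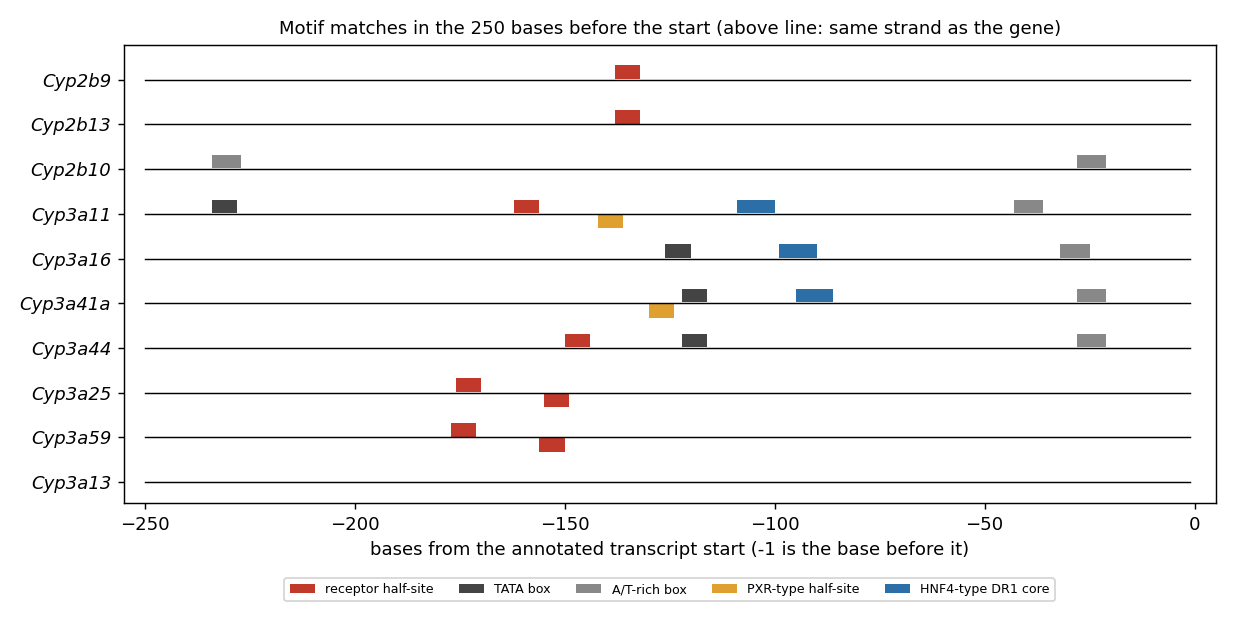
Positions of motif matches (coloured boxes) in the 250 bases before the annotated start of each of the 10 genes. The x axis gives bases from the start, and boxes above a line are on the strand of the gene. Cyp2b9 and Cyp2b13 hold the same single half-site at -138, while Cyp2b10 holds 2 A/T-rich boxes and no half-site, and Cyp3a13 has no match.

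Cyp2b9, a steroid-hydroxylating enzyme, had 11.6, 7.49, 23.6, 5.61 and 21.0 CPM in WD+alcohol livers 1 to 5, against 1.15, 0.210, 0 and 0 CPM in control livers 1 to 4. It was above every control library in all 5 WD+alcohol libraries and highest in WD+alcohol 3 and 5. The means were 13.9 ± 8.08 CPM in WD+alcohol livers (SD, n = 5) and 0.341 ± 0.551 CPM in control livers (SD, n = 4). The reads behind these values were 360 over the WD+alcohol group and 8 over the control group, 7 of them in control 1, so no ratio of the means is given. The log2 fold change, taken on log2(CPM + 1), which understates the change of low genes, was 3.36 ± 0.38 (SE; 95% interval 2.54 to 4.18; limma-trend adjusted p = 3.44e-04). Since its control level lies near 0, the size depended on the scale, from 1.72 with a pseudocount of 5 to 5.30 with DESeq2, and all 18 alternatives called it higher (adjusted p 4.64e-06 to 0.00550).

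Cyp2b10, the enzyme most used as a read-out of CAR in mice, had 2.43, 1.53, 1.69, 2.27 and 0.601 CPM in WD+alcohol livers 1 to 5, against 18.9, 10.1, 7.99 and 6.63 CPM in control livers 1 to 4. Every WD+alcohol library was below every control library, and control 1 was the highest. The means were 1.70 ± 0.723 CPM in WD+alcohol livers (SD, n = 5) and 10.9 ± 5.54 CPM in control livers (SD, n = 4), from 46 reads over the WD+alcohol group and 244 over the control group. The log2 fold change was -2.09 ± 0.29 (SE; 95% interval -2.72 to -1.46; limma-trend adjusted p = 0.00160). It ran from -1.20 with a pseudocount of 5 to -2.70 with DESeq2, and was called lower in all 18 alternatives (adjusted p up to 0.0122).

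Cyp2b13, whose promoter window is nearly that of Cyp2b9, had 5, 0, 4, 0 and 4 reads in WD+alcohol livers 1 to 5, that is 1.35, 0, 0.751, 0 and 0.801 CPM, against 0 reads in all 4 control livers. A count of 0 allows up to 3 reads, or 0.455 to 0.809 CPM depending on the library, and this limit covers counting error only. Only WD+alcohol 1, 3 and 5 had reads, the same 3 libraries in which Cyp2b9 was highest. With a mean under 1 CPM the gene was not tested, and the fit with no filter gave an adjusted p of 0.385 (limma-trend). The last 300 bases of the longest annotated transcripts of Cyp2b9, Cyp2b10 and Cyp2b13 shared no stretch of 50 bases with any other gene (GENCODE M21, GRCm38).

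Summed over the family, Cyp2b RNA came to 15.4, 9.01, 26.1, 7.88 and 22.4 CPM in WD+alcohol livers and to 20.1, 10.3, 7.99 and 6.63 CPM in control livers. The groups overlapped, with means of 16.2 ± 8.03 CPM (SD, n = 5) in WD+alcohol livers and 11.3 ± 6.09 CPM (SD, n = 4) in control livers. The sum was not called, with a log2 fold change of 0.46 (95% interval -0.29 to 1.22; limma-trend adjusted p = 0.680), nor was it in any of the 18 alternatives. Its make-up differed: Cyp2b9 gave 75.4%, 83.1%, 90.6%, 71.2% and 93.8% of Cyp2b reads in WD+alcohol livers 1 to 5 (of 57, 59, 139, 52 and 112 reads), against 5.74%, 2.04%, 0% and 0% in control livers 1 to 4 (of 122, 49, 46 and 35 reads). The exact (Clopper-Pearson) 95% interval of the lowest WD+alcohol share, that of WD+alcohol 4, ran from 56.9% to 82.9%, and that of the highest control share, in control 1, from 2.34% to 11.5%. These intervals cover counting error only. In every WD+alcohol library Cyp2b9 was above Cyp2b10, and in every control library it was below.

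**Figure D3:**
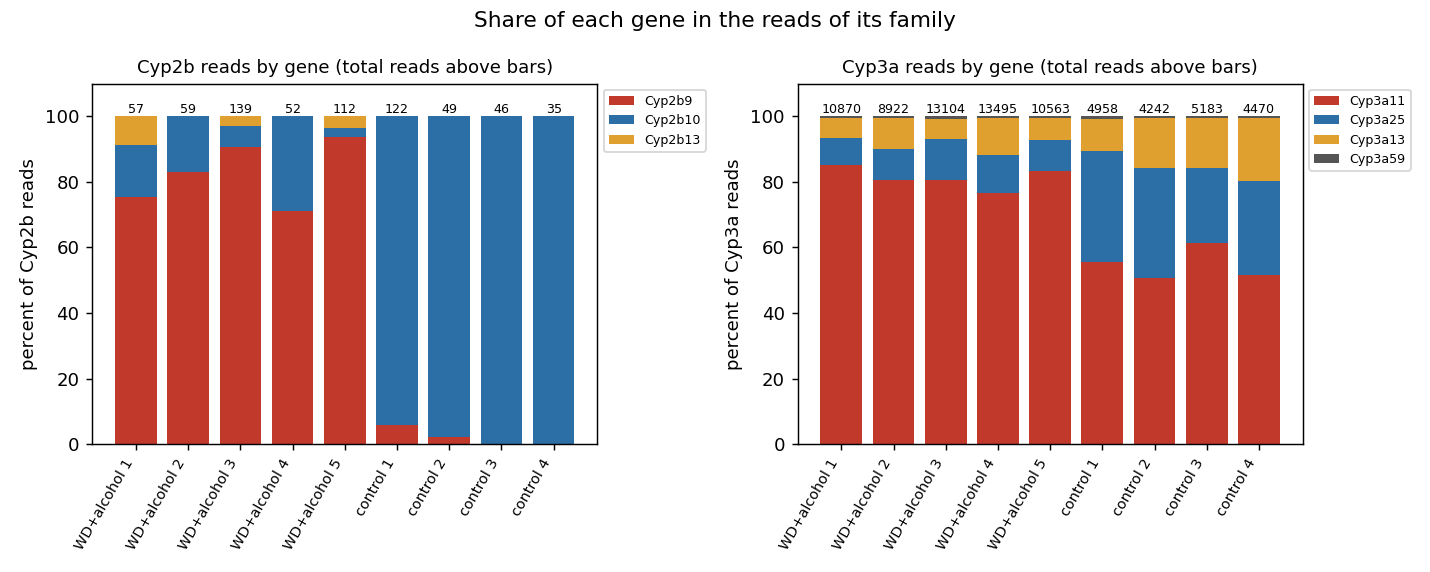
Percent of Cyp2b reads (left) and Cyp3a reads (right) given by each gene (stacked bars, y axes from 0), with 1 bar per library, WD+alcohol libraries left of control libraries, and total family reads above the bars. Cyp2b9 gives 71.2% to 93.8% of Cyp2b reads in WD+alcohol livers and 0% to 5.74% in control livers, and Cyp3a11 gives 76.5% to 85.0% of Cyp3a reads in WD+alcohol livers and 50.8% to 61.4% in control livers.

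Cyp3a11, the main drug- and steroid-oxidising CYP3A enzyme of mouse liver, had 2491, 1098, 1980, 1564 and 1763 CPM in WD+alcohol livers 1 to 5, against 454, 453, 553 and 437 CPM in control livers 1 to 4. Every WD+alcohol library was above every control library, and the WD+alcohol livers were also further apart from each other. The means were 1779 ± 514 CPM in WD+alcohol livers (SD, n = 5) and 474 ± 53.1 CPM in control livers (SD, n = 4). The log2 fold change was 1.86 ± 0.18 (SE; 95% interval 1.47 to 2.25; limma-trend adjusted p = 9.66e-05).

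Cyp3a59 had 12.7, 6.72, 17.3, 6.82 and 9.41 CPM in WD+alcohol livers 1 to 5, against 5.93, 4.83, 4.34 and 4.36 CPM in control livers 1 to 4. The groups did not overlap, although WD+alcohol 2 and 4 lay close to control 1. The means were 10.6 ± 4.46 CPM in WD+alcohol livers (SD, n = 5) and 4.87 ± 0.745 CPM in control livers (SD, n = 4). With a log2 fold change of 0.91 ± 0.24 (SE; 95% interval 0.39 to 1.42) the gene missed the threshold (limma-trend adjusted p = 0.0710). It was called higher in 4 of 18 alternatives. These were rescaling all libraries to one total (log2 fold change 0.95, limma-trend adjusted p = 0.0411), leaving out WD+alcohol 2 (1.03, 0.0455) or WD+alcohol 4 (1.03, 0.0423), and DESeq2 (1.10, 0.0138). Rescaling called 3.18% of all genes (2.47% higher, 0.711% lower) and DESeq2 called 3.69% (2.51% higher, 1.19% lower), against 2.29% with limma-trend on the deposited scale.

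Cyp3a13, a CYP3A enzyme also found in the intestine, had 181, 127, 151, 236 and 140 CPM in WD+alcohol livers 1 to 5, against 79.4, 136, 137 and 162 CPM in control livers 1 to 4. Its groups overlapped, with control 1 lowest and WD+alcohol 4 highest, and the log2 fold change was 0.39 (95% interval -0.04 to 0.82; limma-trend adjusted p = 0.465). Cyp3a25, another CYP3A enzyme of the liver, had 244, 130, 310, 237 and 202 CPM in WD+alcohol livers 1 to 5, against 278, 297, 207 and 244 CPM in control livers 1 to 4. Its groups overlapped too, with WD+alcohol 2 lowest and WD+alcohol 3 highest, and the log2 fold change was -0.23 (95% interval -0.65 to 0.19; limma-trend adjusted p = 0.727). Neither gene was called in any of the 18 alternatives, and the intervals leave room for a rise of Cyp3a13 or a fall of Cyp3a25.

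Cyp3a16, Cyp3a41a and Cyp3a44 had 0 reads in all 9 libraries, so that a level above 0.455 to 0.809 CPM (3 reads) was not detected in either group. Of the other symbols of the families, Cyp3a57 had 1 read, in WD+alcohol 1, and the pseudogene Cyp3a63-ps had 2, 1 and 2 reads in WD+alcohol 2, 3 and 4 and 1 read in control 2. In the GENCODE M21 transcripts, all 251 stretches of 50 bases in the last 300 bases of Cyp3a41a (100%) also occurred in Cyp3a41b, which was at 0 as well, and 23.1% of those of Cyp3a44 and 4.78% of those of Cyp3a16 occurred in another Cyp3a gene. The sources used here do not say how reads that match several genes were counted, and the zeros of Cyp3a41a and Cyp3a44 are uncertain. Of the stretches of Cyp3a11, 0.797% were shared, with Cyp3a63-ps, and none of those of Cyp3a13, Cyp3a25 and Cyp3a59.

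Summed over the family, Cyp3a RNA came to 2930, 1363, 2459, 2045 and 2115 CPM in WD+alcohol livers and to 817, 891, 901 and 847 CPM in control livers. Every WD+alcohol library was above every control library, and WD+alcohol 2 was the lowest of its group. The sum was 2.53-fold higher as a ratio of means, with a log2 fold change of 1.29 (95% interval 0.93 to 1.65; limma-trend adjusted p = 8.44e-04), and was called higher in all 18 alternatives. Since the 3′ reads give each transcript 1 end whatever its length, levels may be set side by side between genes. In all 9 libraries the order of levels was Cyp3a11, Cyp3a25, Cyp3a13 and Cyp3a59, although the ranges of Cyp3a25 and Cyp3a13 overlapped among WD+alcohol livers (130 to 310 and 127 to 236 CPM). Cyp3a11 gave 81.2 ± 3.25% of Cyp3a reads in WD+alcohol livers (SD, n = 5) and 54.8 ± 4.84% in control livers (SD, n = 4), while Cyp3a25 gave 10.3 ± 1.73% in WD+alcohol livers and 29.8 ± 5.10% in control livers.

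**Figure D4:**
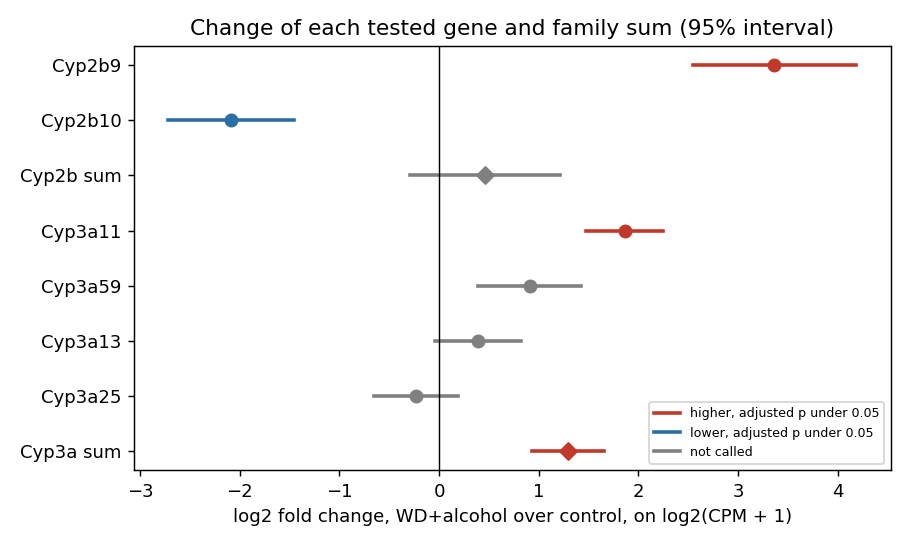
Log2 fold change of WD+alcohol over control on log2(CPM + 1) (x axis), with 95% intervals (lines), for the 6 tested genes (circles) and the 2 family sums (diamonds). Cyp2b9 (3.36) and Cyp2b10 (-2.09) lie on opposite sides of 0 and the Cyp2b sum (0.46) has an interval that includes 0, whereas the Cyp3a sum (1.29) lies above 0 as Cyp3a11 (1.86) does.

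Within groups the genes did not all vary together. As a description over the 9 libraries, the Pearson correlation of deviations from the group means of log2(CPM + 1) was 0.79 between Cyp2b9 and Cyp3a59, 0.74 between Cyp3a25 and Cyp3a59 and 0.67 between Cyp3a11 and Cyp3a59. It was 0.37 between Cyp2b9 and Cyp3a11, 0.05 between Cyp2b9 and Cyp2b10 and -0.63 between Cyp2b9 and Cyp3a13. Points share their library and its depth. WD+alcohol 3 was the highest library for Cyp2b9, Cyp3a25 and Cyp3a59, and WD+alcohol 2 the lowest of its group for Cyp3a11, Cyp3a13, Cyp3a25 and Cyp3a59.

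The genes whose levels ran most like those of the 3 called genes were ranked among 10137 genes that averaged 5 CPM or more, by Pearson correlation over the 9 libraries. For Cyp2b9 they were Acaa1b, a peroxisomal thiolase of fatty acid oxidation (r = 0.990), the fatty acid transporter Cd36 (0.977) and the redox protein Txn1 (0.973). With group means removed, these correlations were 0.933, 0.800 and 0.887. Acaa1b averaged 902 ± 235 CPM in WD+alcohol livers (SD, n = 5) and 352 ± 26.3 CPM in control livers (SD, n = 4). For Cyp3a11 they were the phagocyte receptor Clec7a (0.979), Gpnmb, a glycoprotein of lipid-laden macrophages (0.969), and Rad51b, a DNA repair gene (0.967), and 0.800, 0.626 and 0.634 with group means removed. For Cyp2b10 they were Uggt1, a glucosyltransferase of protein folding in the endoplasmic reticulum (0.946), Ogfrl1 (0.938) and Pwwp3a (0.933), and 0.628, 0.699 and 0.744 with group means removed. The correlations over the 9 libraries as they stand include the difference between the groups, those with group means removed do not, and the genes shown are the highest of many.

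RNA of the receptors themselves was not called as changed. Nr1i3 (CAR) had 87.1, 58.1, 151, 104 and 86.9 CPM in WD+alcohol livers 1 to 5, against 117, 136, 53.0 and 104 CPM in control livers 1 to 4, with a log2 fold change of -0.06 (95% interval -0.64 to 0.52; limma-trend adjusted p = 0.965). Nr1i2 (PXR) averaged 60.2 ± 4.58 CPM in WD+alcohol livers (SD, n = 5) and 51.4 ± 14.0 CPM in control livers (SD, n = 4), with a log2 fold change of 0.26 (95% interval -0.07 to 0.60; limma-trend adjusted p = 0.547). Their partner Rxra averaged 97.3 ± 15.7 CPM in WD+alcohol livers and 107 ± 17.8 CPM in control livers, with a log2 fold change of -0.14 (95% interval -0.43 to 0.15; limma-trend adjusted p = 0.758). For all 3 receptors the groups overlapped, and the intervals do not show equal levels. Of the 18 tested genes of CAR, PXR and their cofactors, 0 were called by limma-trend, edgeR or DESeq2 and 1, Hnf4a, had an unadjusted p under 0.05 (median log2 fold change -0.03).

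Other genes listed as CAR or PXR targets moved both ways. Of 24 tested CAR targets beside the 10 genes, 1 rose and 3 fell (limma-trend), with a median log2 fold change of 0.35. In this list 12 genes had an unadjusted p under 0.05 (limma-trend), in either direction, against 12.2% of all tested genes. The log2 fold change was above 0 for 17 of the 24. Sult1e1 averaged 2.43 CPM in WD+alcohol livers and 0.317 CPM in control livers and passed the filter through WD+alcohol livers. By this gene, the unadjusted count, the count above 0 and the median lean towards genes high in that group. The drug-metabolising P450 Cyp2c29 fell to 304 ± 124 CPM in WD+alcohol livers, against 941 ± 162 CPM in control livers (SD, n = 5 and n = 4; log2 fold change -1.69; limma-trend adjusted p = 7.22e-04), and its relative Cyp2c54 fell to 63.1 ± 38.4 CPM, against 187 ± 48.3 CPM in control livers. Like Cyp2b10, both were lower in every WD+alcohol library. Cyp1a2, which oxidises caffeine and aromatic amines and is listed under both receptors, fell to 128 ± 47.2 CPM in WD+alcohol livers, against 349 ± 68.0 CPM in control livers. The efflux transporter Abcc3, also on both lists, rose to 34.4 ± 6.13 CPM in WD+alcohol livers, against 19.5 ± 5.12 CPM in control livers.

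Of 22 tested PXR targets beside the 10 genes, 3 rose and 1 fell (limma-trend), with a median log2 fold change of 0.37. Besides Abcc3 and Cyp1a2 these were Cd36 and Abcb1a, which codes for the efflux pump P-glycoprotein. Of the 22 genes, 10 had an unadjusted p under 0.05 (limma-trend), in either direction, and 17 had a log2 fold change above 0. Gsta1 averaged 2.14 CPM in WD+alcohol livers and 0.128 CPM in control livers and passed the filter through WD+alcohol livers. By this gene, these 2 counts and the median lean towards genes high in that group. Cd36 rose to 73.6 ± 13.5 CPM in WD+alcohol livers, against 23.1 ± 3.33 CPM in control livers (SD, n = 5 and n = 4; log2 fold change 1.62; limma-trend adjusted p = 4.79e-05). Abcb1a rose to 5.66 ± 1.72 CPM in WD+alcohol livers, against 2.11 ± 0.690 CPM in control livers. Macrophages also express Cd36, and the rise of macrophage genes is given below. The CAR count of 4 was 8 without WD+alcohol 4, and the PXR count of 4 was 7 without WD+alcohol 4 and 2 without control 3, so single libraries decided which targets were called. Several genes stand on both lists, so the counts are not independent. Ugt1a9 and Sult2a1, on both lists, and Cyp2c65, on the CAR list, had 0 reads in all libraries. Their 3′ ends were not compared with those of other genes, so these zeros are uncertain.

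The 18 genes of electron transfer and haem supply showed 2 higher and 0 lower (limma-trend; median log2 fold change 0.09). An unadjusted p under 0.05 (limma-trend), in either direction, was reached by 8 of the 18, against 12.2% of all tested genes. The biliverdin reductase Blvrb rose to 132 ± 18.5 CPM in WD+alcohol livers, against 91.3 ± 7.17 CPM in control livers, and Uros, an enzyme of haem synthesis, rose to 7.10 ± 1.87 CPM, against 3.37 ± 0.627 CPM in control livers (SD, n = 5 and n = 4). The reductase Por, which serves all P450 enzymes of the endoplasmic reticulum, averaged 352 ± 83.8 CPM in WD+alcohol livers and 247 ± 71.1 CPM in control livers and was not called (log2 fold change 0.53; 95% interval 0.10 to 0.96; limma-trend adjusted p = 0.259). The count of 2 was 1 without WD+alcohol 1, 3 or 5 or control 1 or 3, 3 without WD+alcohol 4 and 4 without control 4, and also 1 with no filter and 4 with DESeq2. Of 9 tested genes of bile acid feedback by the receptor FXR, 0 were called by limma-trend, edgeR or DESeq2 and 1 had an unadjusted p under 0.05. The most abundant, the bile acid hydroxylase Cyp8b1, averaged 157 ± 21.7 CPM in WD+alcohol livers and 182 ± 76.1 CPM in control livers.

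Since Cyp2b9 and Cyp2b13 are known as female-biased, other sex-biased liver genes were set beside them. Of 19 listed female-biased genes beside the 10 genes, 8 were tested, of which 2 rose and 0 fell (limma-trend; median log2 fold change 0.79). The rest averaged under 1 CPM and were not tested, among them Cyp3a41b, Sult2a1 and Sult2a2 with 0 reads in all libraries. Cyp2a22 and Cyp2a4 averaged 0.341 and 0.510 CPM in control livers and passed the filter through WD+alcohol livers. The count and the median therefore lean towards genes high in that group. Cyp2a22 rose to 6.83 ± 4.44 CPM in WD+alcohol livers, against 0.341 ± 0.307 CPM in control livers, and the monooxygenase Fmo2 rose to 17.9 ± 7.06 CPM, against 5.80 ± 2.59 CPM in control livers (SD, n = 5 and n = 4). The count of 2 was 0 without WD+alcohol 5, control 1 or control 3 and 1 without WD+alcohol 3, with no filter or at a mean of at least 5 CPM. Of 19 tested male-biased genes 0 rose and 12 fell (median log2 fold change -1.42): Hsd3b5, Slco1a1, Serpina1e, Selenbp2, Cyp7b1, Susd4, Elovl3, Nudt7, Ugt2b38, C8b, Cyp4a12b and Cyp2d9. The steroid dehydrogenase Hsd3b5 fell most, to 1.78 ± 2.04 CPM in WD+alcohol livers, against 80.2 ± 43.3 CPM in control livers. Ugt2b38 averaged 0.115 CPM in WD+alcohol livers and 2.28 CPM in control livers and passed the filter through control livers. The count of 12 leans, by this gene, towards genes high in the control group. Of 13 tested genes of growth hormone and STAT5 control, the pathway that sets these sex differences, 0 were called by limma-trend, edgeR or DESeq2 and 3 had an unadjusted p under 0.05, with 1 called, Egfr, without WD+alcohol 4. Its most abundant gene, Igf1, averaged 530 ± 114 CPM in WD+alcohol livers and 685 ± 155 CPM in control livers (log2 fold change -0.37; limma-trend adjusted p = 0.375).

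**Figure D5:**
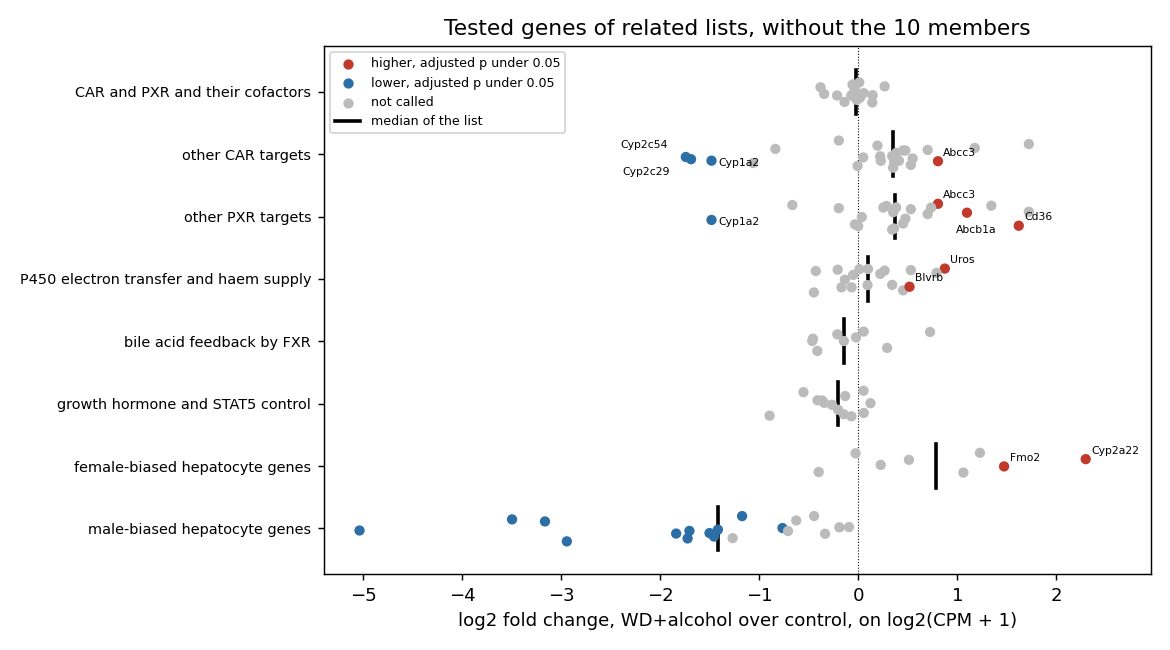
Log2 fold change of WD+alcohol over control on log2(CPM + 1) (x axis) of each tested gene (points, spread vertically for legibility) of 8 lists without the 10 genes, with the list medians (bars). Genes of CAR, PXR and their cofactors lie around 0 (median -0.03), targets of both receptors have points on both sides (medians 0.35 and 0.37), and all points of the male-biased list lie below 0 (median -1.42).

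In whole liver, fewer cells of a type and less RNA per cell cannot be told apart. Macrophage RNA moved with the groups: 10 of 12 Kupffer cell and macrophage genes rose and 0 fell, and their summed level was 485 to 840 CPM in WD+alcohol livers and 124 to 254 CPM in control livers. Of 17 hepatocyte genes 0 rose and 3 fell (limma-trend), Serpina1a, Apoa1 and Alb. The median log2 fold change of the 17 was -0.43, against -7.66e-04 for all tested genes, and 2 of the 17 were above 0. An unadjusted p under 0.05 (limma-trend), in either direction, was reached by 10 of the 17, against 12.2% of all tested genes. The summed level was 47916 to 65193 CPM in WD+alcohol livers and 64647 to 91481 CPM in control livers. The count of 3 was 1 without WD+alcohol 1, 2 or 5 or control 2, 3 or 4, and 2 without control 1. It was 1 with no filter and 6 with DESeq2. Hepatocytes are the known site of these P450 enzymes, and the part of cell make-up in the changes of Cyp2b9, Cyp2b10 and Cyp3a11 was not tested. The ranges of the hepatocyte sum overlapped between the groups, those of the macrophage sum did not.

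Expression of these P450 genes is strongest in hepatocytes near the central vein. Of 15 tested pericentral genes 2 rose and 2 fell (limma-trend; median log2 fold change -0.09): the glutamine synthetase Glul rose to 811 ± 147 CPM in WD+alcohol livers, against 513 ± 75.7 CPM in control livers, Aldh3a2 rose as well, and Cyp1a2 and Cyp27a1 fell. Of 4 tested foetal hepatocyte genes 0 were called by limma-trend, edgeR or DESeq2 and 0 had an unadjusted p under 0.05, with Scd2 the most abundant, and Cyp3a16 at 0. Among lists of other cells, Fcgr2b rose of 10 sinusoidal endothelial genes (2 genes without control 2 or 4, 0 without control 3 or WD+alcohol 5) and Dcn of 10 stellate and fibroblast genes. Of 9 genes on the adipocyte list 4 were tested, Cfd and Fabp4 rose, Pck1, the most abundant, fell and Lep was at 0. These genes are not limited to adipocytes, and the cells their RNA came from were not tested. No cholangiocyte gene was called of 5 tested by limma-trend, edgeR or DESeq2 (1 at an unadjusted p under 0.05; Spp1 the most abundant), and none of 6 B, T and NK cell genes (2 at an unadjusted p under 0.05; Igkc the most abundant). Of 10 small intestine genes 1 was tested, Fabp2, at 104 ± 24.5 CPM in WD+alcohol livers and 46.0 ± 3.64 CPM in control livers, and Alpi, Sis, Cdx1 and Cdx2 were at 0 in all libraries.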

How the data were processed

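Per the labels' protocols, liver RNA was taken up in Trizol and libraries were made with a Collibri kit for 3′ mRNA. The submitters' processing notes name Trim Galore 0.6.0 and cutadapt 1.18 for trimming, and reads were, per these notes, aligned with STAR to GRCm39 (mm39), counted with HTSeq 0.11.0 and scaled with edgeR 3.28.1 in R 3.6.3. Strand use and multimapping are not given in the sources used here. The deposited values are a signal, TMM-scaled CPM by the authors, in columns that summed to between 959495 and 1061154. Every positive value (100%, tolerance 1e-06) was a whole multiple of 1 read, so reads were recovered for depths, shares and the count-based alternatives. Library names in the labels tied the 9 columns to samples, grouped by title.

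The test was limma-trend (limma 3.58.1 in R 4.3.3, two-sided) on log2(CPM + 1), over the 14759 of 24607 symbols with reads whose mean was at least 1 CPM, with Benjamini-Hochberg adjustment and a threshold of 0.05. Family sums were refitted with all other genes. Unadjusted p-values under 0.05 numbered 1798 (12.2%). The 18 alternatives were pseudocounts of 0.25 and 5, no filter, a mean of at least 5 CPM, 2 other scalings, a block for the replicate number, each library left out in turn, edgeR 4.0.16 (quasi-likelihood) and DESeq2 1.42.0. The script was tested on simulated data.

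The 10 genes and the 18 lists were chosen with earlier results of these data known. Named genes are the 10, other Cyp2b or Cyp3a symbols with reads, Nr1i3, Nr1i2, Rxra and Por, the called genes of each list (or its most abundant), and the 3 genes most like each called one. Hnf4a, Egfr, Sult1e1 and Gsta1 were named after their values were seen. Promoters came from RefSeq (GRCm38.p6, all 10 matched by symbol) and 3′ ends from GENCODE M21.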

Additional observations from a re-analysis of the deposited data

Results flagged for a closer look

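In 5 of 113 group and gene pairs 1 library stood apart from the rest of its group by the gap to its nearest neighbour over the range of the group (Dixon's criterion at 95%), which chance alone gives for about 1 in 20 groups. Cyp3a11 was at 553 CPM in control 3, with the other control livers at 437 to 454 CPM. The CAR target Cyp2c29 was at 519 CPM in WD+alcohol 3, with the other WD+alcohol livers at 202 to 283 CPM. Fabp2 was at 147 CPM in WD+alcohol 3, with the other WD+alcohol livers at 86.0 to 102 CPM, and at 51.4 CPM in control 1, with the other control livers at 44.0 to 44.3 CPM. The endothelial gene Fcgr2b was at 23.5 CPM in WD+alcohol 2, with the other WD+alcohol livers at 30.5 to 33.0 CPM.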

How the results depend on the processing

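The calls of Cyp2b9, Cyp2b10, Cyp3a11 and the Cyp3a sum, and the lack of a call for Cyp3a13, Cyp3a25 and the Cyp2b sum, held in all 18 alternatives, and no result reversed. The log2 fold change of Cyp3a59 (0.91) passed the threshold with DESeq2 (1.10) and after rescaling to one total (0.95), and ran from 0.72 to 1.03 with 1 library left out. The 338 called genes were 545 with DESeq2 and 201 (without WD+alcohol 5) to 387 with 1 library left out. The 238 higher genes were 370 with DESeq2, 365 with rescaling and 139 to 264 with 1 library left out (148 without control 1). The 100 lower genes were 175 with DESeq2 and 59 (without control 2) to 123 with 1 library left out. The causes were not tested. No pairing by replicate number was seen, although the same-numbered pairs are few. Same-numbered libraries had correlations of deviations of -0.311 to -0.0075, and the other pairs across groups had -0.0932 to 0.287. In the replicate block WD+alcohol 5 shares its number with no control library, so it does not count towards the group difference. The replicate block left 112 called genes (76 higher, 36 lower), and of the 44 list genes called 25, with 0 called in the electron transfer and haem, female-biased, hepatocyte, endothelial and stellate lists. Counts of single lists moved by over 1.5 times in 39 cases and stayed within that in 285. A level under 0.455 to 0.809 CPM (3 reads) could not be detected at this depth.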
